A study of Homo sapiens with 8 samples.

Results

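The 39 genes described here carry out DNA replication or mark the G1/S transition of the cell cycle. They were chosen by symbol for their function, out of 22504 genes, with earlier results of these data known. All 39 members passed the filter on low values, which kept genes with at least 1 FPKM (fragments scaled to transcript length and to the mapped fragments of the library) in at least 2 libraries and left 12996 genes. Poly(A) RNA was sequenced from U2OS, an established human osteosarcoma cell line, with 2 libraries in each of 4 groups. The groups were cells with the actin mutant G13R after serum stimulation, cells with GFP after serum stimulation, cells with G13R in normal growth, and cells with GFP in normal growth. The mutant was overexpressed and GFP served as its control. The labels name no promoter for either construct, no actin gene that carries the mutation, no duration of serum and no earlier withdrawal of serum. Separate cultures for the libraries are not stated either, and every p-value therefore rests on library-to-library spread that may be technical.

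DNA replication starts at origins bound by the origin recognition complex, where CDC6 and CDT1 load the MCM helicase in G1. CDC45 and the GINS complex then turn the loaded MCM ring into an active helicase, and polymerases held by the PCNA clamp copy the strands from nucleotides supplied by ribonucleotide reductase, thymidylate synthase and thymidine kinase. Many of these genes are transcribed at the G1/S transition by E2F factors, which are released when cyclin-dependent kinases phosphorylate the retinoblastoma protein, and serum growth factors act upstream of that step.

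Promoters came from RefSeq (build GRCh38.p14), each 250 bases before to 50 bases after the gene's start in RefSeq. They were matched by symbol for 35 of the 39 members. Their starts were not compared with the gene spans given below in build hg19. MCM4, MCM5, GINS4 and E2F8 had no entry. Each promoter was searched on both strands for 4 spellings of the E2F element, TTTCGCGC, TTTGGCGC, TTTCCCGC and TTTGCCGC, with overlapping matches counted separately. At least 1 match was found in 20 of 35 member promoters (57.14%), against 3.315% of 35116 promoters of the same length and 4.779% of the 14186 promoters of genes tested here. More than 1 match was found in 5 members. The CCAAT box, searched on both strands, was found in 20 of 35 members, against 34.61% of all promoters. TTTGAA, 1 spelling of the CHR element of genes active later in the cycle, was found on either strand in 1 of 35 members, against 15.16%. Such a match is a description of letters and not a measured binding site.

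The 8 promoters shown belong to the members that passed the test in most comparisons and then had the largest differences, and capitals mark the E2F spellings. RFC3 lies at chr13:33817899-33818198 (plus strand), CDC25A at chr3:48188368-48188667 (minus strand), CDC45 at chr22:19479670-19479969 (plus strand) and GINS3 at chr16:58392221-58392520 (plus strand). ORC6 lies at chr16:46689409-46689708 (plus strand), TYMS at chr18:657403-657702 (plus strand), MCM3 at chr6:52284693-52284992 (minus strand) and RFC2 at chr7:74254350-74254649 (minus strand). The sequences are written 5′ to 3′ on the gene's strand.
RFC3: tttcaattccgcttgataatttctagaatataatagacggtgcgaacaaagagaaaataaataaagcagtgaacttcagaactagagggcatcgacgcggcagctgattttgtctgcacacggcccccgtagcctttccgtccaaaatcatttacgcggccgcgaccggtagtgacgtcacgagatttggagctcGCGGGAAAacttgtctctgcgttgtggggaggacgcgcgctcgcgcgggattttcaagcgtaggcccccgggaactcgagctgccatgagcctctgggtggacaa
CDC25A: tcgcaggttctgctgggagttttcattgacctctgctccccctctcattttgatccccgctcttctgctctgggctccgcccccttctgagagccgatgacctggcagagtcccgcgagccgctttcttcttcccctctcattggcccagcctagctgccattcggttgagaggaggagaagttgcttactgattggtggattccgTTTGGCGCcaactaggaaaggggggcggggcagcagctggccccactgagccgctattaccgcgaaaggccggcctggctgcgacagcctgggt
CDC45: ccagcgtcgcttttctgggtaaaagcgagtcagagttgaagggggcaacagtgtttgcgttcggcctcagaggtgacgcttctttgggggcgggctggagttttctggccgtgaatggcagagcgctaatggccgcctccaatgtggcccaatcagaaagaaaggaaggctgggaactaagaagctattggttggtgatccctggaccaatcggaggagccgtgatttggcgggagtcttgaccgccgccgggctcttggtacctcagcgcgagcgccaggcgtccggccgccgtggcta
GINS3: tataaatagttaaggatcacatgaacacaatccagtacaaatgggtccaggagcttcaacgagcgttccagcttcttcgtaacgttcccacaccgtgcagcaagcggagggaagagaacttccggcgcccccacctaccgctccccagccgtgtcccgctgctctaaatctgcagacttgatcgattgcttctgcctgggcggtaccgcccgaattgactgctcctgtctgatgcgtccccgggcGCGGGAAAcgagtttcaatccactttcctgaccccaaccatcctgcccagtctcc
ORC6: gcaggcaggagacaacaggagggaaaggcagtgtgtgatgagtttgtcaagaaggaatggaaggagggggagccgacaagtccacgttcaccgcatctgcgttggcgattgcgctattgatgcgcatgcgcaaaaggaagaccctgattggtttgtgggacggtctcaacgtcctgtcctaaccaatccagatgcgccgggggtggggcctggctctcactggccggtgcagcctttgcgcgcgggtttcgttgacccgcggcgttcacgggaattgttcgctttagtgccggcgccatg
TYMS: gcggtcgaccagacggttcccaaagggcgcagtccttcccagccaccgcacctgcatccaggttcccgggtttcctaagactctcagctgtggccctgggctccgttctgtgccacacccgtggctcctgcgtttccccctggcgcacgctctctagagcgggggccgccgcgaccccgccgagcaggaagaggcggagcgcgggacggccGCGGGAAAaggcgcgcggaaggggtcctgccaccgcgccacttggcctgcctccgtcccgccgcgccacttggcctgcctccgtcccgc
MCM3: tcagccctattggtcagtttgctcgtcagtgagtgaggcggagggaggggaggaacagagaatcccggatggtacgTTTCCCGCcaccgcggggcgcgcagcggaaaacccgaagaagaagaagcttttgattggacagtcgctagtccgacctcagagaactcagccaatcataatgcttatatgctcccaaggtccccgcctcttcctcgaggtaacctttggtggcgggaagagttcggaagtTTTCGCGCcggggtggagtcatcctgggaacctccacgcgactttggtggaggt
RFC2: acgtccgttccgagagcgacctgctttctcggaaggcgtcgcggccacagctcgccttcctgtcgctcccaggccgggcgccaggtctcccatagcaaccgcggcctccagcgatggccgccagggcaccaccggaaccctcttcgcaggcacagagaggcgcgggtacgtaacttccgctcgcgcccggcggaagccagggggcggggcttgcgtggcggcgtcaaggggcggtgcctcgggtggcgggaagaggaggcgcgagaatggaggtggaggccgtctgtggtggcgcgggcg
In MCM3 the 2 matches stood apart, RFC3, CDC25A, GINS3 and TYMS had 1 each, and these letters are not in the windows of CDC45, ORC6 and RFC2.

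Each library had 12065 to 12568 genes at 1 FPKM or more. Pearson's r between libraries of 1 group, taken over the genes tested, was 0.980 to 0.989, where genes are not independent replicates. Depth is unknown because the deposited values hold no read counts. ACTB, as a check of the labels, had 8676 and 7949 FPKM in G13R cells after serum, against 2543 and 2615 FPKM in GFP cells after serum. In normal growth it had 11245 and 10011 FPKM in G13R cells, against 2602 and 2779 FPKM in GFP cells, and FPKM cannot tell mutant from endogenous transcripts. Of the osteoblast markers, 5 of 8 were at 1 FPKM or more in every library, led by SPARC, and so were 3 of 5 epithelial markers, led by KRT18. KRT18 was lower in G13R cells after serum (log2 difference -0.53, limma adjusted p = 0.0450), and KRT18 and KRT8 were higher with serum in GFP cells, as KRT18 was in G13R cells. Of 3 neural markers, 2 reached 1 FPKM in every library, and NEFL, a neurofilament gene at 5.39 to 15.2 FPKM, was higher with serum in both kinds of cell (0.81 in each). The part of these lineage markers in the members' differences was not tested. Leukocyte and endothelial markers summed to at most 1.37 and 0.563 FPKM in any library.

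The members were expressed at very different levels, which FPKM allows to be compared because it is per length. Averaged over the 8 libraries, TYMS had 166 FPKM, RRM2 had 155 FPKM and TK1 had 134 FPKM, while E2F8 was lowest at 3.42 FPKM. The ratio of the highest to the lowest library for a single member ran from 1.32 for CHAF1B to 2.37 for CDC25A. The members' FPKM summed to 1632 and 1728 in G13R cells after serum and to 1916 and 1994 in GFP cells after serum. In normal growth the sums were 1704 and 1790 FPKM in G13R cells and 2079 and 2249 FPKM in GFP cells. GFP normal replicate 2 held the highest value of the 8 libraries for 20 of 39 members, and G13R serum replicate 1 held the lowest for 14. Between the 2 libraries of a group, the members' median absolute difference on log2(FPKM + 1) was 0.103 in G13R cells after serum, 0.155 in GFP cells after serum, 0.138 for G13R in normal growth and 0.139 for GFP in normal growth.

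**Figure D1:**
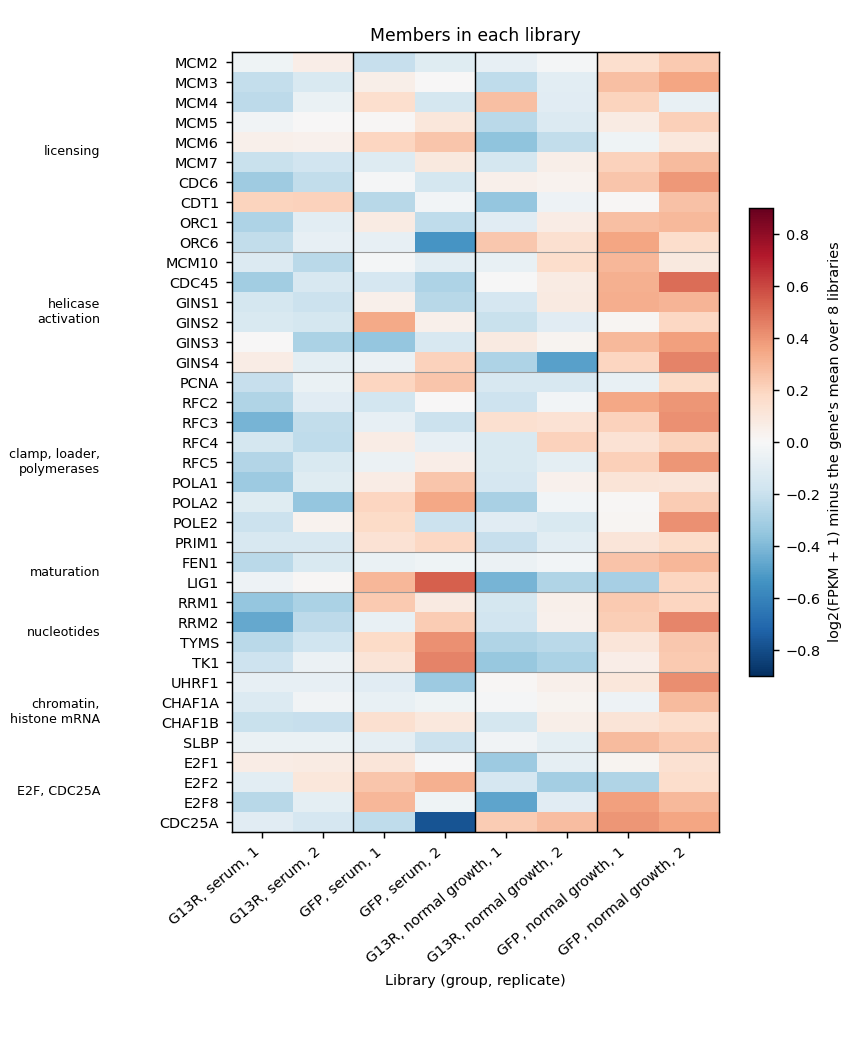
Heat map of the 39 members (vertical axis, grouped by role) in the 8 libraries (horizontal axis); colour is log2(FPKM + 1) minus the gene's mean over the 8 libraries. Averaged over the members, the GFP libraries in normal growth are the highest, and their replicate 2 is the highest of 8 for 20 members. GFP serum replicate 2 is the highest for 9.

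In normal growth, G13R cells had lower values than GFP cells for almost every member, but none passed the test. With all libraries, no member was called at a limma adjusted p under 0.05 (Benjamini-Hochberg adjustment over 12996 genes), where 0.0462% of all genes tested were called (0.0385% higher and 0.00769% lower), and 21 of 39 had an unadjusted p under 0.05, against 15.1% of all genes. The log2 difference was below 0 for 38 of 39 members, against 64.0% of all genes, and the libraries did not overlap, with G13R lower, for 32 of 39, against 34.3%. No member was higher without overlap, against 14.4% of all genes. With median-ratio scaling or quantile normalization, 27 of 39 were lower without overlap, against 22.7% and 22.6% of all genes. The median log2 difference was -0.29 over the members and -0.07 over all genes tested. Leaving out either GFP serum library, which this comparison does not contain but which enters the shared spread, gave 4 calls, TK1, TYMS, MCM3 and GINS4. The 0.0462% of all genes is of the fit to all libraries and does not apply to those 4 calls. In bulk RNA, fewer cells in a phase of the cycle and less of these members' transcripts per cell cannot be told apart.

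Among the licensing factors, the median log2 difference in normal growth was -0.30, and 8 of 10 were lower without overlap. MCM3, a subunit of the MCM helicase (hg19 chr6:52128807-52149679), had 56.4 and 62.2 FPKM in G13R cells, against 80.2 and 85.2 FPKM in GFP cells. That was a log2 difference of -0.48 ± 0.09 (SE), with the smallest limma adjusted p of the members at 0.0880. The highest G13R value lay well below the lowest GFP value. ORC1, the largest subunit of the origin recognition complex, had 10.01 and 11.4 FPKM in G13R cells, against 13.3 and 13.5 FPKM in GFP cells (-0.30 ± 0.15, adjusted p = 0.383). MCM4, another subunit of the ring, was the member that was not below 0, with 139 and 107 FPKM in G13R cells and 132 and 110 FPKM in GFP cells. The libraries also overlapped for ORC6, a subunit of the origin recognition complex, with 42.4 and 39.5 FPKM in G13R cells and 45.8 and 39.95 FPKM in GFP cells.

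GINS4, a subunit of the GINS complex, had the largest difference of all members in normal growth. Its values were 17.3 and 14.8 FPKM in G13R cells, against 24.5 and 29.3 FPKM in GFP cells, a log2 difference of -0.70 ± 0.14 with a limma adjusted p of 0.107. The groups did not overlap. CDC45, which joins MCM and GINS in the active helicase, had 51.2 and 54.1 FPKM in G13R cells, against 64.4 and 73.3 FPKM in GFP cells (-0.38 ± 0.10, adjusted p = 0.172). MCM10, which acts at helicase activation, was the 1 member of this role whose libraries overlapped.

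Among clamp, clamp loader and polymerase genes, 8 of 9 were lower without overlap in normal growth, with a median log2 difference of -0.28. RFC2, a subunit of the clamp loader, had 42.7 and 47.9 FPKM in G13R cells, against 62.3 and 64.2 FPKM in GFP cells (-0.47 ± 0.11, adjusted p = 0.129). PCNA, the sliding clamp, had 97.8 FPKM in both G13R libraries, against 103 and 122 FPKM in GFP cells. POLE2, a subunit of polymerase epsilon, had 23.1 and 22.5 FPKM in G13R cells, against 25.1 and 33.5 FPKM in GFP cells (-0.33 ± 0.16, adjusted p = 0.371). RFC4 was the member of this role whose libraries overlapped. For lagging strand maturation, FEN1, the flap endonuclease, had 64.5 and 65.8 FPKM in G13R cells, against 80.1 and 82.7 FPKM in GFP cells (-0.32 ± 0.08, adjusted p = 0.162). The libraries of LIG1, the ligase that joins Okazaki fragments, overlapped.

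The nucleotide synthesis enzymes had the lowest role median in normal growth, -0.42, and all 4 were lower without overlap. TK1, thymidine kinase, had 104 and 108 FPKM in G13R cells, against 138 and 156 FPKM in GFP cells (-0.46 ± 0.11, adjusted p = 0.162). TYMS, thymidylate synthase, had 136 and 138 FPKM in G13R cells, against 176 and 194 FPKM in GFP cells (-0.43 ± 0.09, adjusted p = 0.121). RRM2, the regulated subunit of ribonucleotide reductase, had 135 and 156 FPKM in G13R cells, against 178 and 207 FPKM in GFP cells (-0.40 ± 0.13, adjusted p = 0.197). In each of these, both GFP libraries lay above both G13R libraries.

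Of the chromatin and histone genes, 3 of 4 were lower without overlap in normal growth. SLBP, which binds the stem-loop of histone mRNAs, had 29.01 and 27.9 FPKM in G13R cells, against 36.3 and 35.2 FPKM in GFP cells (-0.32 ± 0.10, adjusted p = 0.187). CHAF1A, the large subunit of chromatin assembly factor 1, overlapped. E2F8, an atypical E2F that represses, had the largest difference of the E2F group at a low level, with 2.12 and 3.04 FPKM in G13R cells, against 4.61 and 4.32 FPKM in GFP cells (-0.62 ± 0.20, adjusted p = 0.208). E2F1 had 24.9 and 29.7 FPKM in G13R cells, against 32.0 and 34.7 FPKM in GFP cells, and E2F2 overlapped.

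**Figure D2:**
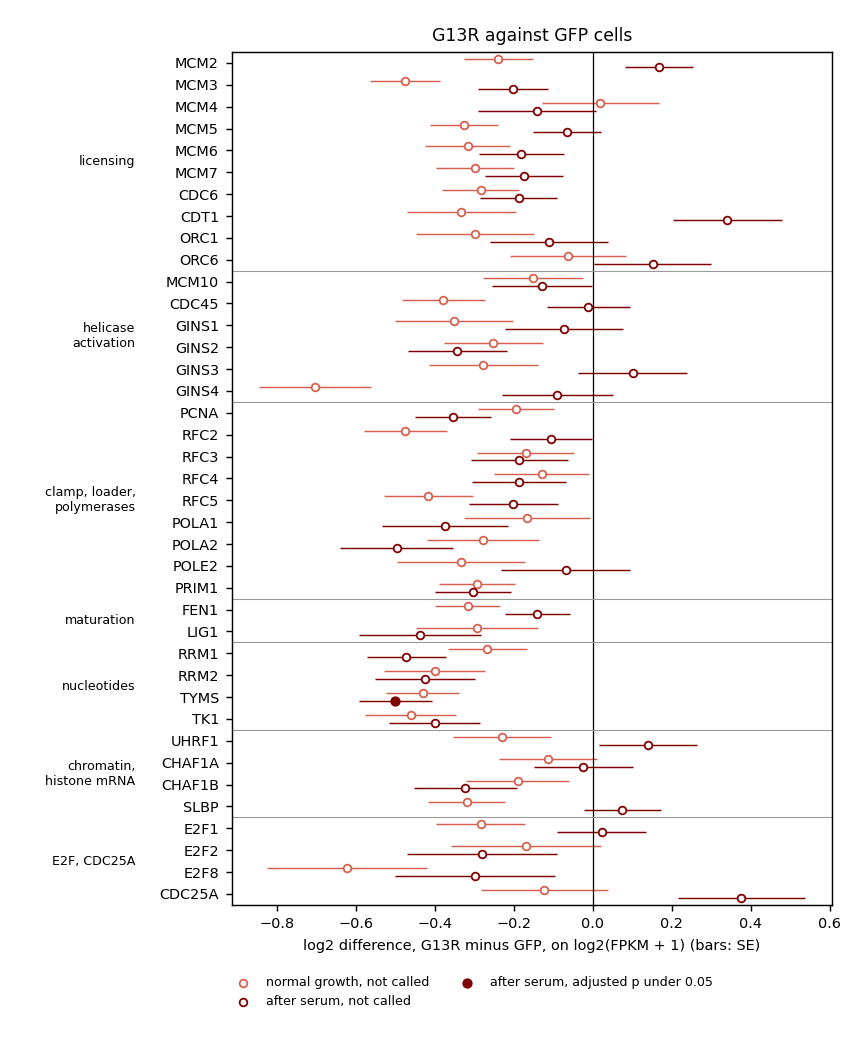
Log2 difference, G13R minus GFP, on log2(FPKM + 1) for each of the 39 members (vertical axis, by role) in each condition; points are the estimates and bars are ±1 SE from limma. In normal growth 38 of 39 members lie below 0, and after serum 31 of 39 do.

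After serum, G13R cells again had lower values than GFP cells for most members, and TYMS alone was called lower in G13R than in GFP cells. TYMS (hg19 chr18:657604-673578) had 138 and 144 FPKM in G13R cells, against 184 and 217 FPKM in GFP cells. The groups did not overlap, and the log2 difference was -0.50 ± 0.09 with a limma adjusted p of 0.0487, a ratio of FPKM + 1 of 0.707. This 1 call of 39 stood against 0.492% of all genes called lower after serum and 0.823% called in either direction, and 14 of 39 members had an unadjusted p under 0.05, against 20.8% of all genes. The difference was below 0 for 31 of 39 members, against 55.0% of all genes, with a median of -0.17 over the members and -0.03 over all genes. The libraries did not overlap, with G13R lower, for 23 members, against 29.4% of all genes. Under the other scalings this held for 19 or 20 members, and the 29.4% does not apply to those counts.

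The TYMS call was close to the threshold: it was lost when any library other than GFP serum replicate 1 was left out, and its adjusted p reached 0.361 over 16 alternatives. Its span overlaps ENOSF1 and C18orf56, from which reads were not separable here.

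None of the other nucleotide synthesis enzymes passed the test with all libraries. RRM1, the large subunit of ribonucleotide reductase, had 42.6 and 44.5 FPKM in G13R cells after serum, against 64.2 and 57.5 FPKM in GFP cells (-0.47 ± 0.10, adjusted p = 0.0569). RRM2 had 110 and 129 FPKM in G13R cells, against 145 and 178 FPKM in GFP cells (-0.42 ± 0.13, adjusted p = 0.113). TK1 had 116 and 127 FPKM in G13R cells, against 143 and 181 FPKM in GFP cells (-0.40 ± 0.11, adjusted p = 0.103). All 4 enzymes of the role were lower without overlap after serum as in normal growth, and the role's median was -0.45. Without GFP serum replicate 1, RRM1, RRM2 and TK1 were called lower as well, with limma adjusted p of 0.0469, 0.0219 and 0.00828, and with the filter at 5 FPKM RRM1 was called (adjusted p = 0.0448).

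At the fork, 7 of 9 clamp, clamp loader and polymerase genes were lower without overlap after serum. POLA2, the accessory subunit of polymerase alpha, had 19.3 and 16.2 FPKM in G13R cells, against 24.0 and 26.8 FPKM in GFP cells (-0.50 ± 0.14, adjusted p = 0.104). PCNA had 93.7 and 104 FPKM in G13R cells, against 124 and 129 FPKM in GFP cells (-0.35 ± 0.10, adjusted p = 0.0944). The others without overlap were RFC3, RFC4 and RFC5 of the clamp loader, POLA1, the catalytic subunit of polymerase alpha, and PRIM1, the primase. LIG1 had 34.4 and 35.8 FPKM in G13R cells, against 43.9 and 52.1 FPKM in GFP cells (-0.44 ± 0.15, adjusted p = 0.154), and GINS2, of the GINS complex, had 21.1 and 20.8 FPKM in G13R cells, against 29.8 and 24.2 FPKM in GFP cells (-0.34 ± 0.13, adjusted p = 0.165). CHAF1B, the middle subunit of chromatin assembly factor 1, had 9.39 and 9.32 FPKM in G13R cells, against 12.2 and 11.7 FPKM in GFP cells (-0.32 ± 0.13, adjusted p = 0.200).

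A smaller set of members had higher values in G13R cells after serum. The libraries did not overlap, with G13R higher, for MCM2, CDT1, UHRF1, CDC25A and SLBP, 5 of 39 members, against 22.6% of all genes. CDT1, the licensing factor, had 31.8 and 32.0 FPKM in G13R cells, against 23.0 and 27.1 FPKM in GFP cells (0.34 ± 0.14, adjusted p = 0.200). CDC25A, the phosphatase that activates cyclin-dependent kinases at G1/S, had 17.7 and 17.1 FPKM in G13R cells, against 16.1 and 10.7 FPKM in GFP cells (0.38 ± 0.16, adjusted p = 0.220). The CDC25A values of the GFP libraries were far apart, and without GFP serum replicate 1 its difference was 0.65 with an adjusted p of 0.0112. None of the 5 passed the test with all libraries. The libraries overlapped after serum for the other 11 members, MCM4, ORC1, ORC6, CDC45, GINS1, GINS3, GINS4, RFC2, POLE2, CHAF1A and E2F1.

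All 5 of these members were lower without overlap in normal growth, a combination found in 5.75% of all genes tested. Lower without overlap in both conditions was found for 19 of 39 members, against 13.6% of all genes. Those 19 were MCM3, MCM5, MCM6, MCM7 and CDC6 among licensing genes, GINS2, PCNA, RFC3, RFC5, POLA1, POLA2, PRIM1 and FEN1 at the fork, RRM1, RRM2, TYMS and TK1 in nucleotide synthesis, and CHAF1B and E2F8.

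**Figure D3:**
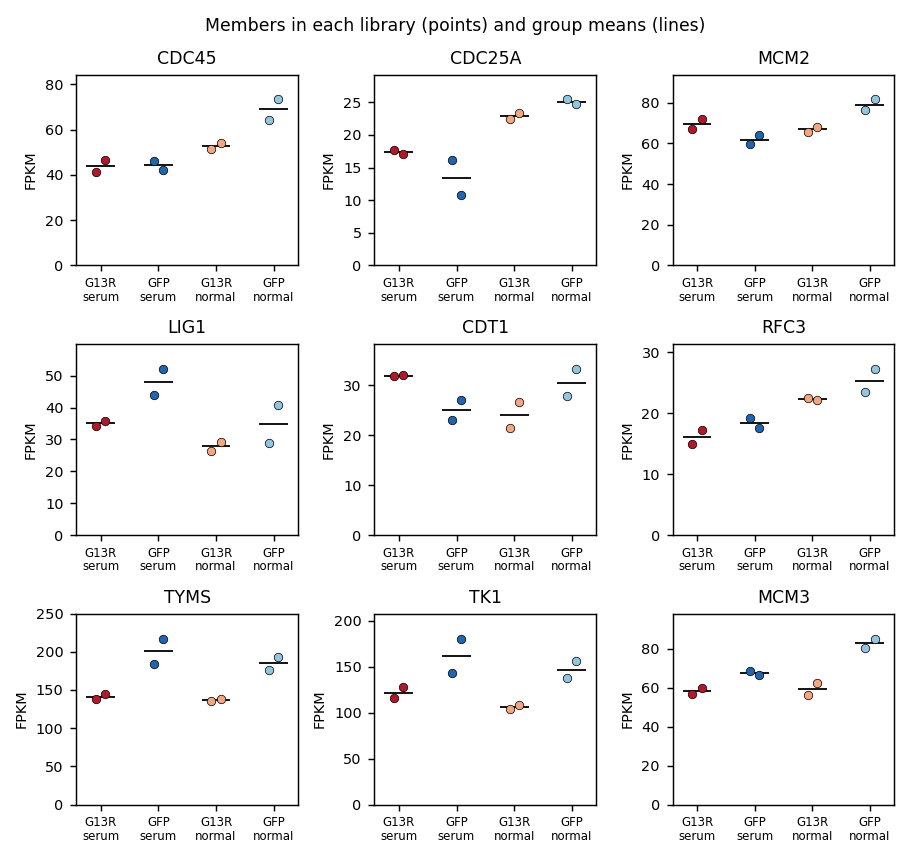
FPKM (vertical axis, from 0) of 9 members in the 8 libraries, with the groups along the horizontal axis, points for libraries and lines for group means. TYMS is lower in G13R than in GFP cells in both conditions, while CDC25A is lower after serum than in normal growth in both kinds of cell.

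With serum in G13R cells RFC3 alone passed the test, with a fall, and the members' median difference was close to 0. RFC3, a subunit of the clamp loader (hg19 chr13:34392186-34540695), had 14.9 and 17.2 FPKM after serum, against 22.5 and 22.2 FPKM in normal growth. The groups did not overlap, and the log2 difference was -0.46 ± 0.12 with a limma adjusted p of 0.0377. This 1 call of 39 stood beside 4.62% of all genes called lower, 8.26% called higher and 12.9% called either way with serum in G13R cells, so the members' share was near or below the background. The median was -0.09 over the members and 0.04 over all genes, and 24 of 39 were below 0, against 44.5% of all genes. The RFC3 call was not made without any 1 of the 4 G13R libraries.

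Of the members in G13R cells, 17 were lower after serum without overlap, against 26.4% of all genes, and 9 were higher, against 34.3%. CDC6, which loads the MCM ring with CDT1, had 36.3 and 38.9 FPKM after serum, against 47.0 and 46.6 FPKM in normal growth (-0.31 ± 0.10, adjusted p = 0.0641). CDT1 ran the other way, with 31.8 and 32.0 FPKM after serum, against 21.4 and 26.7 FPKM in normal growth (0.40 ± 0.14, adjusted p = 0.0847). MCM6 of the helicase had 24.2 and 24.0 FPKM after serum, against 18.02 and 19.9 FPKM in normal growth (0.33 ± 0.11, adjusted p = 0.0701). GINS4 had 22.3 and 19.9 FPKM after serum, against 17.3 and 14.8 FPKM in normal growth (0.37 ± 0.14, adjusted p = 0.112). The remaining members higher without overlap were MCM5, LIG1, TYMS, TK1, E2F1 and E2F2, and none of them passed the test.

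Serum in GFP cells gave the most calls among the members: 12 fell and LIG1 rose. The 12 that fell were MCM2, MCM3, CDC6 and ORC6 among 10 licensing genes, CDC45 and GINS3 among 6 helicase activation genes, RFC2 and RFC3 among 9 clamp, loader and polymerase genes, FEN1 among 2 maturation genes, UHRF1 and SLBP among 4 chromatin and histone genes, and CDC25A among 4 in the E2F group. None of the 4 nucleotide synthesis genes was called. The share of members called lower was 30.8%, against 15.7% of all genes, and the 1 called higher stood against 14.9% of all genes. In either direction 33.3% of members were called, which is near the 30.7% of all genes. The median was -0.24 over the members and 0.01 over all genes, and 29 of 39 were below 0, against 49.1% of all genes.

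Under median-ratio scaling the split of members called stayed at 12 lower and 1 higher. Of all 12994 genes tested under that scaling, 1940 were called lower and 2054 higher. Under quantile normalization the members' split was 10 lower and 4 higher, where TYMS, TK1 and PCNA joined LIG1. Of all 12990 genes tested under quantile normalization, 1923 were called lower and 1733 higher. Leaving out a single library lowered the number called to 8 (GFP normal replicate 1 left out), to 5 (GFP normal replicate 2 left out) or to 7 (GFP serum replicate 2 left out). The shares of all genes called with all libraries do not apply to these counts. GFP normal libraries are also those set against G13R cells in normal growth, so those results share them.

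CDC25A (hg19 chr3:48198636-48229892) had the largest fall with serum in GFP cells. It had 16.1 and 10.7 FPKM after serum, against 25.4 and 24.7 FPKM in normal growth, a log2 difference of -0.88 ± 0.16 with a limma adjusted p of 0.00304 and a ratio of FPKM + 1 of 0.543. CDC45 (hg19 chr22:19466982-19508135) followed, with 46.3 and 42.2 FPKM after serum, against 64.4 and 73.3 FPKM in normal growth (-0.63 ± 0.10, adjusted p = 0.00197). The libraries of the groups did not overlap for either gene, and both calls were made under all 16 alternatives.

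Among the licensing genes, ORC6 (hg19 chr16:46723555-46732306) fell to 33.9 and 24.4 FPKM after serum, against 45.8 and 39.95 FPKM in normal growth of GFP cells (-0.56 ± 0.15, adjusted p = 0.0174). CDC6 (hg19 chr17:38443885-38459171) fell to 45.2 and 40.8 FPKM after serum, against 54.4 and 60.1 FPKM in normal growth (-0.41 ± 0.10, adjusted p = 0.0115). MCM2 (hg19 chr3:127317066-127341276), the MCM subunit that also binds histones, fell to 59.7 and 63.9 FPKM after serum, against 76.5 and 81.5 FPKM in normal growth (-0.35 ± 0.09, adjusted p = 0.0134). The other MCM subunits were less uniform. MCM3 fell to 68.7 and 66.3 FPKM after serum, against 80.2 and 85.2 FPKM in normal growth (-0.29 ± 0.09, adjusted p = 0.0327), and lost the call under 8 of 16 alternatives. MCM7 had 112 and 130 FPKM after serum, against 141 and 149 FPKM in normal growth, without passing (adjusted p = 0.0701). MCM6 had 26.9 and 28.0 FPKM after serum, against 22.7 and 25.01 FPKM in normal growth, higher without overlap and not called.

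At helicase activation and at the clamp, GINS3 (hg19 chr16:58328984-58440048) fell to 11.2 and 13.1 FPKM after serum, against 18.01 and 19.01 FPKM in normal growth of GFP cells (-0.57 ± 0.14, adjusted p = 0.0114). RFC2 (hg19 chr7:73645829-73668774) fell to 43.2 and 48.7 FPKM after serum, against 62.3 and 64.2 FPKM in normal growth (-0.45 ± 0.11, adjusted p = 0.00951). RFC3 fell to 19.2 and 17.5 FPKM after serum, against 23.4 and 27.2 FPKM in normal growth (-0.44 ± 0.12, adjusted p = 0.0220), about as far as in G13R cells. None of these 3 genes had overlapping libraries, and each promoter is among those printed above. PCNA had 124 and 129 FPKM after serum, against 103 and 122 FPKM in normal growth, higher without overlap and not called (0.17 ± 0.10, adjusted p = 0.207).

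The maturation genes moved apart with serum in GFP cells. FEN1 (hg19 chr11:61560109-61564716) fell to 64.2 and 65.1 FPKM after serum, against 80.1 and 82.7 FPKM in normal growth (-0.33 ± 0.08, adjusted p = 0.0140). Its span overlaps FADS2, from which reads were not separable here. LIG1 (hg19 chr19:48618702-48673860) rose to 43.9 and 52.1 FPKM after serum, against 28.8 and 40.8 FPKM in normal growth (0.47 ± 0.15, adjusted p = 0.0430), although its normal growth libraries lay far apart and the call was lost under 9 of 16 alternatives. UHRF1 (hg19 chr19:4903092-4962165), which recruits DNA methyltransferase to hemimethylated DNA, fell to 30.8 and 26.2 FPKM after serum, against 35.6 and 44.5 FPKM in normal growth (-0.47 ± 0.12, adjusted p = 0.0173). SLBP (hg19 chr4:1694527-1714282) fell to 28.0 and 25.8 FPKM after serum, against 36.3 and 35.2 FPKM in normal growth (-0.40 ± 0.10, adjusted p = 0.0122).

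**Figure D4:**
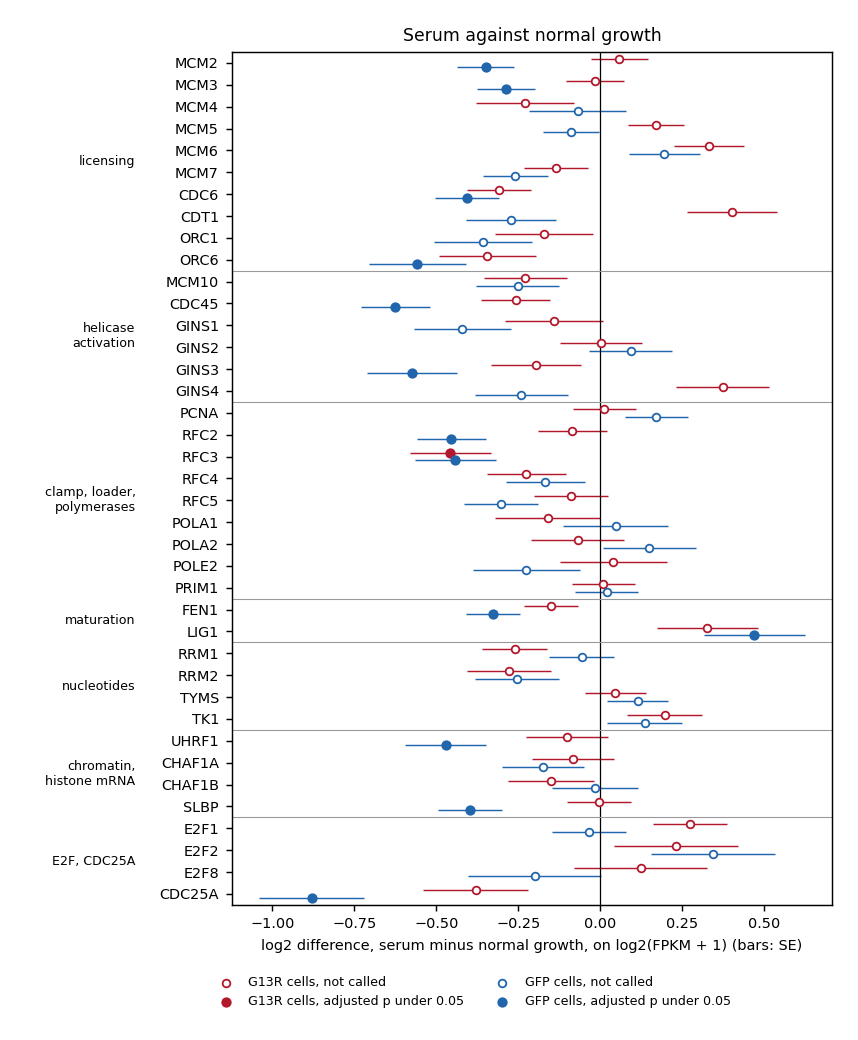
Log2 difference, serum minus normal growth, on log2(FPKM + 1) for each of the 39 members (vertical axis, by role) in G13R and in GFP cells; points are the estimates and bars are ±1 SE from limma. CDC25A at -0.88 and CDC45 at -0.63 are the lowest in GFP cells, and RFC3 is at -0.46 in G13R and -0.44 in GFP cells.

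Of the 39 members, 19 were lower after serum without overlap in GFP cells, against 33.0% of all genes, and 4 were higher (MCM6, PCNA, LIG1 and E2F2), against 33.3%. Under the other scalings 6 were higher, a count to which the 33.3% does not apply. In 13 members serum was lower without overlap in both kinds of cell, against 19.3% of all genes, and in MCM6, LIG1 and E2F2 it was higher in both, against 22.2%. The 13 were MCM7, MCM10, CDC6, CDC45, ORC6, GINS1, GINS3, RFC3, RFC4, RFC5, FEN1, UHRF1 and CDC25A.

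Whether serum acted differently in G13R and GFP cells was tested by the difference of the responses, G13R minus GFP. No member and no other gene was called by limma, so the percentage of all genes called was 0, and 6 of 39 members had an unadjusted p under 0.05 (MCM2, CDT1, CDC45, GINS4, RFC2 and SLBP), against 11.8% of all genes. Of the members, 14 were below 0, against 43.9% of all genes, and the median was 0.14 over the members and 0.04 over all genes. CDT1 had the largest difference, 0.67 ± 0.20, with a limma adjusted p of 0.279. It was the 1 member higher without overlap with serum in G13R cells and lower without overlap in GFP cells, a combination found in 2.17% of all genes. CDC25A, which fell with serum by the test in GFP cells, had a difference of 0.50 ± 0.23 (adjusted p = 0.427), and RFC3, called in both kinds of cell, had -0.02 ± 0.17 (adjusted p = 0.983). Without GFP serum replicate 1 the CDC25A difference was 0.77 and was called (adjusted p = 0.0329), so for that gene the answer depended on 1 library.

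**Figure D5:**
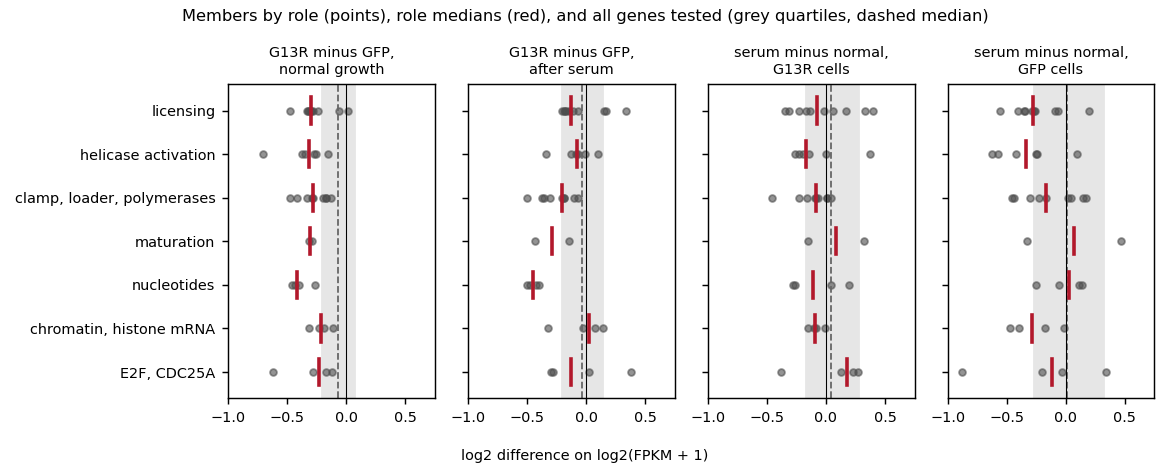
Log2 difference of the members by role (points) in each comparison, on log2(FPKM + 1), with role medians in red, the quartiles of all genes tested in grey and their median dashed. The nucleotide synthesis median is -0.42 in normal growth and -0.45 after serum for G13R minus GFP, and 0.03 for serum minus normal growth in GFP cells.

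The remaining 72 genes of the same pathways, in 5 lists, were called about as often as the background in the comparison with most calls. With serum in GFP cells 19 of 72 (26.4%) were called, against 30.7% of all genes. In G13R against GFP cells, 0 of 72 were called by limma in normal growth. After serum 1 of 72 (1.39%) was called, against 0.823% of all genes. This was RPA3, a subunit of the single-strand binding protein, which was lower in G13R than in GFP cells. It had 65.1 and 71.0 FPKM in G13R cells after serum, against 96.6 and 100.1 FPKM in GFP cells after serum (-0.53 ± 0.09, adjusted p = 0.0449). With serum in G13R cells 6 of 72 (8.33%) were called, below the 12.9% of all genes: POLD4, ASF1B and RBL2 rose and NASP, LIN52 and E2F4 fell. With serum in GFP cells, 1 of 14 other licensing genes rose and 4 fell, 2 of 22 other fork genes rose and 6 fell, 3 of 12 other nucleotide and chromatin genes rose and 0 fell, 1 of 14 E2F, pocket and DREAM genes rose and 2 fell, and 0 of 10 repair genes was called. ORC5 of the origin recognition complex had 11.5 and 11.3 FPKM after serum, against 19.4 and 16.7 FPKM in normal growth of GFP cells (-0.62 ± 0.13, adjusted p = 0.00570). RBL2, the pocket protein p130 of quiescent cells, rose to 13.8 and 14.5 FPKM after serum, against 7.27 and 6.85 FPKM in normal growth of GFP cells (0.91 ± 0.15, adjusted p = 0.00179).

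Markers of dividing cells were measured beside the members. Their 7 genes summed to between 432 and 475 FPKM in G13R cells after serum, between 512 and 576 FPKM in GFP cells after serum, between 513 and 557 FPKM in G13R cells in normal growth and between 662 and 684 FPKM in GFP cells in normal growth. All 7 were below 0 for G13R minus GFP in both conditions, against 64.0% of all genes in normal growth and 55.0% after serum, with 0 called by limma. With serum, AURKA and PLK1 fell in both kinds of cell and CCNA2 also fell in GFP cells, against 4.62% of all genes called lower in G13R cells and 15.7% in GFP cells. TOP2A had a difference of 0.15 with serum in GFP cells and was not called. Their part in the members' results was not tested. The size factor of a library, from median ratios over genes, was 0.958 and 0.984 for the normal growth libraries of G13R cells and 1.03 for both of GFP cells, and with that scaling 37 of 39 members were still below 0 in that comparison.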

How the data were processed

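RNA was measured in 8 libraries, 2 in each of 4 groups. The authors deposited 1 table of FPKM values per gene and library, made with TopHat2 2.0.13 and Cufflinks 2.2.1, with hg19 and BDGP5 named as builds, per the submitters' processing notes. Which gene annotation served is not given in the sources used. FPKM holds no read counts, so depth is unknown, and neither intervals nor count models were used. Because Cufflinks splits reads between transcripts, values of overlapping genes (12 members) and of members with pseudogenes are uncertain. Column names gave the libraries (C stands for normal growth), leaving 0 unmatched. Start positions counted from 0: the span, as end minus start, was divisible by 3 for 77.4% of 159 short olfactory receptor genes, so 1 was added and coordinates are 1-based hg19 spans.

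The test was limma 3.58.1 (R 4.3.3) on log2(FPKM + 1), with an intensity trend, 1 mean per group and all 8 libraries sharing the spread (4 residual degrees of freedom), after a filter of at least 1 FPKM in at least 2 libraries. This scale understates changes of low genes. A call is a Benjamini-Hochberg adjusted p under 0.05 over the 12996 genes left, and all adjusted p-values are from limma. The fit was tested on simulated data with changes of 1 and 2 on the log2 scale. The members' differences given here were smaller, and calls of that size were not tested. Tables and figures used Python 3.11.15, pandas 2.3.3, numpy 2.4.6 and matplotlib 3.10.9.

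The members and lists were chosen with earlier results of these data known. Members called in any of the 5 comparisons, and the member of each of 7 roles with the largest difference in G13R against GFP in normal growth and with serum, are given per library. Other pathway genes are named up to 3 a list where called. Further members named with values, among them MCM4, MCM6, MCM7, PCNA, RRM1 and E2F1, were chosen after their values were seen. Alternatives changed the pseudocount to 0.1, the filter to none or to 5 FPKM, and the scaling to median ratios or quantile normalization; others used the compared groups alone, no trend, or the replicate number as a block, or left out each library. Counts of members below 0, of members without overlap under other scalings, and medians relative to all genes were added after seeing the data.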

Additional observations from a re-analysis of the deposited data

How the results depend on the processing

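Over 16 alternatives, 0 of the 15 called values and 0 of the 20 uncalled values examined changed sign, 55 of 240 combinations of a called value and an alternative lost the call, and 17 of 319 uncalled combinations became calls. The calls of CDC25A and CDC45 with serum in GFP cells held under each. For G13R against GFP after serum (1 member called), 0 were called with a pseudocount of 0.1, with no filter, with the compared groups alone and without the trend, and 2 with the filter at 5 FPKM. Of all genes, 73 of 12996, 4 of 19375, 6 of 12654, 6 of 12996 and 263 of 9867 were called in these settings, in that order. For serum in G13R cells (1 called), 0 were called with no filter and without the trend, 2 with median-ratio scaling and 6 with the compared groups alone. Of all genes, 932 of 19375 were called with no filter, 1791 of 12994 with median-ratio scaling and 2394 of 12522 with the compared groups alone. For serum in GFP cells (13 called), 8 of 39 were called with the compared groups alone, against 2971 of all 12544 genes. Quantile normalization gave medians of -0.183 for G13R against GFP in normal growth, -0.12 after serum, -0.163 for serum in GFP cells and 0.055 for the difference of responses. Under median-ratio scaling and quantile normalization, members without overlap numbered 27 lower in G13R than in GFP cells in normal growth, 19 to 20 lower and 5 higher after serum, 19 to 20 lower and 8 to 9 higher with serum in G13R cells, and 19 to 22 lower and 6 higher with serum in GFP cells. Except for normal growth, the shares of all genes without overlap given above are of the unscaled values and do not apply to these counts. The cause of the changes between settings was not tested.

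Leaving out each library in turn called 0 to 4 members for G13R against GFP in normal growth, 0 to 5 after serum, 0 to 4 for serum in G13R cells, 5 to 16 for serum in GFP cells and 0 to 1 for the difference of responses. The medians ran from -0.349 to -0.22 in normal growth, from -0.228 to -0.129 after serum, from -0.113 to -0.03 for serum in G13R cells, from -0.333 to -0.147 for serum in GFP cells and from 0.086 to 0.196 for the difference. Without GFP serum replicate 1 or GFP serum replicate 2, TK1, TYMS, MCM3 and GINS4 were called lower in normal growth, 4 members, and 4 were called with serum in G13R cells. CDC25A was called in the difference of responses without GFP serum replicate 1. Without any 1 G13R library, 0 were called with serum in G13R cells. Where a group is left with 1 library, that library is assumed to vary like the others. The shares of all genes called given above are of the fit to all libraries and do not apply to these counts.

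Deviations of same-numbered libraries from their group means correlated at 0.017 to 0.121 over the genes tested. These low values cannot tell whether the replicate numbers pair the libraries. Replicate 2 was higher than replicate 1 for 28 of 39 members in G13R cells after serum and for 20 in GFP cells after serum. In normal growth it was higher for 29 members in G13R cells and 30 in GFP cells. With the replicate block, 4 members were called for G13R against GFP in normal growth, 4 after serum and 3 for serum in G13R cells, and 16 for serum in GFP cells. The shares of all genes called given above are of the fit without the block and do not apply to these counts.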

Other observations

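The 20 members with an E2F spelling in the promoter window and the 15 matched members without one had close medians, except with serum in G13R cells. For G13R minus GFP in normal growth the medians were -0.28 with and -0.30 without, and after serum -0.18 with and -0.14 without. For serum minus normal growth they were -0.01 with and -0.15 without in G13R cells, and -0.24 with and -0.25 without in GFP cells. These are descriptions, with no test.

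The largest gap between libraries of a group among the members was 0.545 on log2(FPKM + 1), for CDC25A in GFP cells after serum, and 186 genes of all tested differed over 2-fold between those libraries.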
